A study of Mus musculus with 24 samples.

Results

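RNA from formalin-fixed, paraffin-embedded (FFPE) liver was compared with RNA from frozen liver of vehicle-treated control mice. The comparison takes 7 of the 24 samples of the series: the 4 control pieces fixed for 18 h (animals 02, 03, 04 and 06) and the 3 control frozen pieces with a labelled column in the count table (animals 02, 04 and 06). Pieces with the same animal number were cut from 1 liver. All 24015 genes of the table are members, and 13034 of them had enough counts to be tested.

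The mice were B6C3F1 females, 5 to 6 weeks old when bought, and the controls received the corn oil vehicle without furan (0 mg/kg) by gavage for 21 days. Livers were taken 4 h after the last gavage, and each was divided into a frozen piece, a piece fixed for 18 h and a piece fixed for 3 weeks, the last of which is not described here. The furan livers used for 1 comparison came from mice of the same strain, sex and age given furan at 8 mg/kg on the same schedule (4 FFPE 18 h and 3 frozen samples). Frozen RNA was purified from about 100 mg of tissue with a column kit for fresh tissue and FFPE RNA from 1 section of 10 µm with an FFPE kit, so fixation, embedding, kit and amount of tissue cannot be told apart. The RNA integrity number, which runs low for broken RNA, exceeded 8.9 in frozen samples, while FFPE samples ranged from 1.3 to 2.4. Libraries were selected on poly(A) with oligo(dT), made with a kit that does not keep the strand, and sequenced on a HiSeq 2000.

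As background, formalin links RNA to protein, and RNA recovered from paraffin blocks is generally short. Oligo(dT) selection keeps molecules that carry a run of A, which in an intact messenger RNA (mRNA) is the tail at its 3′ end. Ribosomal RNA, the RNA parts of RNase P and RNase MRP, and most small nucleolar RNAs carry no such tail. In bulk RNA, fewer cells of a type and less RNA per cell cannot be told apart, which holds for every cell type marker below.

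Total counts were 16277165 to 19315103 in the FFPE libraries and 44980028 to 52810289 in the frozen ones. Thinned to the smallest total, the FFPE libraries held 13264 to 13768 genes with at least 5 counts and the frozen ones 13144 to 13427. The FFPE library of animal 06 stood apart: Rn45s, the ribosomal RNA precursor gene, took 37.3% of its counts, against 6.42% to 7.22% in the other FFPE libraries and 0.133% to 0.182% in the frozen ones. The median coefficient of variation between libraries, over genes with a CPM (read counts scaled to a common library total) of at least 5, was 11.7% in FFPE, 8.96% in FFPE without animal 06 and 7.65% in frozen. All CPM below are scaled with edgeR's trimmed mean of M values (TMM), which puts values of the FFPE library of animal 06 above its unscaled ones. Levels are compared between libraries only, never between genes.

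Of the 13034 tested genes, 8867 passed an adjusted p of 0.05 (68%), 4463 higher (34.2%) and 4404 lower (33.8%) in FFPE. The CPM ranges of the groups did not overlap for 8785 genes (67.4%). A change of 2-fold or more in the passing genes was seen for 2683 higher and 2010 lower genes, one of 4-fold or more for 1031 higher and 451 lower genes, and one of 8-fold or more for 317 higher and 98 lower genes. Larger changes were thus more often upward. The median log2 fold change of all tested genes was 0.02, so the list medians below are read against about 0. With libraries scaled by total counts alone, that median moved to -0.27 and 37% of 7820 passing genes were higher. With upper-quartile scaling it was 0.12 and 55% of 8875 were higher. The lists of immediate early, hypoxia-responsive, cytochrome P450, urea cycle, cell cycle, reference, periportal and sinusoidal endothelial genes have medians so near 0 that they changed sign under one of these scalings. Total-count scaling also cut the number of higher members from 31 to 20 for proteasome subunits, from 67 to 29 for Zfp genes, from 10 to 5 for interferon-stimulated genes, from 9 to 5 for cytochromes P450 and from 9 to 2 for urea cycle and amino acid genes. It cut them from 7 to 4 for reference and for hypoxia-responsive genes, from 6 to 3 for immediate early genes, from 4 to 1 for glucose genes, from 3 to 1 for periportal markers, from 2 to 1 for pericentral markers and from 2 to 0 for erythroid markers. It raised the lower members from 4 to 7 for cell cycle genes, from 2 to 4 for Kupffer cell markers and from 1 to 2 for mesothelial markers, and upper-quartile scaling cut those of proteasome subunits from 4 to 2. A test against a fold of 1.5 left 5484 genes, and a model of all 6 groups of the series 5769.

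RNAs that carry no poly(A) tail were among the genes with the largest gains. Rpph1, the RNA of RNase P, which trims transfer RNA precursors, stood at 14.2, 11, 10.3 and 245 CPM in the FFPE libraries of animals 02, 03, 04 and 06 and at 0.122, 0.0816 and 0.0341 CPM in the frozen ones of animals 02, 04 and 06. Rmrp, the RNA of RNase MRP, which cuts the ribosomal RNA precursor, stood at 6.22, 7.5, 8.38 and 189 CPM in FFPE and at 0.0406, 0.0816 and 0.0853 CPM in frozen. Snord17, a small nucleolar RNA that guides modification of ribosomal RNA, stood at 1.74, 1.28, 2.25 and 32.5 CPM in FFPE and at 0.0406, 0.0653 and 0 CPM in frozen. All FFPE values of these RNAs lay above all frozen ones, which the rule for naming the largest changes required. Animal 06 was the highest FFPE library in each. The whole sequences of Rmrp and Snord17 from the GENCODE M21 transcripts (GRCm38) are shown because they hold no long run of A. The capitals mark the longest run, which is 3 bases in each, and in Rpph1 (chr14:50807449-50807767, minus strand) it is 2 bases.
Rmrp (chr4:43492788-43493058, minus strand): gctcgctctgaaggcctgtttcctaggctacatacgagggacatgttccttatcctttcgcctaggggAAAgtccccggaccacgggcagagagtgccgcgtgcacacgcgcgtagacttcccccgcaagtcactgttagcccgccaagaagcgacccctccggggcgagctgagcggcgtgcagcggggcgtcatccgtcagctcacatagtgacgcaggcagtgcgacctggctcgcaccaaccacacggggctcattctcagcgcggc
Snord17 (chr2:144265979-144266216, minus strand): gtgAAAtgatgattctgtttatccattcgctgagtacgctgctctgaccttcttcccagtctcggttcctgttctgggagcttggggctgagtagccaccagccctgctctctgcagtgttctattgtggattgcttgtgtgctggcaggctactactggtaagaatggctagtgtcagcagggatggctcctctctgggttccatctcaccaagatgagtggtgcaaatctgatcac

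The log2 fold changes were 9.74 ± 1.86 (SE) for Rpph1 (adjusted p = 0.00104), 9.43 ± 1.96 for Rmrp (adjusted p = 0.00174), 7.85 ± 1.68 for Snord17 (adjusted p = 0.00212) and 7.06 ± 1.01 for Rn45s (adjusted p = 0.000153). Without the FFPE library of animal 06 they were 7.17, 6.60, 5.47 and 5.52, so animal 06 carried much of their size but not their direction. Vaultrc5, an RNA of the vault particle, had 357 counts in FFPE and 1 in frozen, a ratio of 932 with a 95% counting interval of 166 to 36900. That ratio pools the libraries and rests mostly on animal 06. Vaultrc5 stood at 1.05, 1.23, 0.867 and 27.8 CPM in the FFPE libraries of animals 02, 03, 04 and 06. The list of ribosomal RNA precursor and small RNAs without a tail has 8 members, of which 4 had enough counts to be tested. All 4 were higher. Vaultrc5, Rmrp and Rpph1 had 1, 12 and 13 counts in frozen, so they could be tested only through their FFPE counts. Their direction was thus largely set by the filter on low counts. Sequence ends of Rpph1 are shared with other transcripts of the annotation, so reads of near-identical copies may be counted with it.

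Small nucleolar and Cajal body RNAs, which guide the modification of other RNAs, were mostly too low to test: 21 of 114 were tested, 13 were higher and 2 lower, with a median log2 fold change of 2.60 that fell to 1.16 without the FFPE library of animal 06. That median stood 0.22 above that of tested genes of the same length, which here and below means the same of 20 groups by length. The shortest group runs from small RNAs such as Snord104 (70 nt) to messenger RNAs such as Mrps12 (883 nt). The median length of the tested small nucleolar and Cajal body RNAs was 128 nt. Members with very few frozen counts could be tested only through FFPE, so the calls and the median come from a selected set. Over all 114, the share of counts without Rn45s was 0.00382%, 0.00339%, 0.00392% and 0.0181% in FFPE animals 02, 03, 04 and 06. In frozen animals 02, 04 and 06 it was 0.0019%, 0.00201% and 0.00192%. Snord104 did not follow animal 06: it stood at 6.62, 8.42, 7.34 and 7.42 CPM in FFPE and at 0.507, 0.734 and 0.239 CPM in frozen. Snora31 reached 9.59-fold and Snord99 11.6-fold. Snord99 shares 100% of its 50-nt words (stretches of 50 nt) with other transcripts of the annotation, so its counts are uncertain. Snora78 had 60 counts in FFPE and 1 in frozen, a pooled ratio of 157 with a 95% counting interval of 27.1 to 6290. It stood at 0.639, 0.411, 0.520 and 2.97 CPM in the FFPE libraries of animals 02, 03, 04 and 06. Snora20 moved the other way, from 2.90 to 4.02 CPM in frozen to 0.205 to 0.872 CPM in FFPE, a call lost in the model of all 6 groups. The multi-exon genes that host these RNAs in their introns rose as a group: 10 of 10 tested hosts were higher, with a median of 2.50. Snhg6 stood at 31.8, 38.5, 38.1 and 29.0 CPM in FFPE and at 2.78, 1.99 and 2.25 CPM in frozen, and the smallest gain of the list was 1.27 for Snhg11. Gas5, Snhg3, Snhg8 and Snhg12 rose by 4.68-fold, 11.8-fold, 9.18-fold and 5.98-fold. The end of Snhg3 shares 100% of its 50-nt words with other transcripts, so its counts are uncertain too.

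Other non-coding RNAs were higher too. Over the 470 tested genes whose matched transcript is non-coding the median log2 fold change was 1.23, with 279 higher and 66 lower, against -0.01 over 12479 coding genes. The non-coding transcripts were shorter, with a median length of 1379.5 nt against 3044 nt. The shortest 20% of all tested genes with a matched transcript, described below, had a median of 1.37. Malat1, a long RNA kept in the nucleus, stood at 1703, 1288, 1729 and 2963 CPM in FFPE and at 191, 195 and 196 CPM in frozen, a gain of 9.89-fold. Of 8 tested nuclear-retained long RNAs 6 were higher, among them the imprinted Kcnq1ot1 (8.99-fold), Mirg (8.67-fold) and Meg3 (4.52-fold) and the paraspeckle RNA Neat1 (2.10-fold). Xist, which coats the inactive X chromosome, was the 1 lower member, at 491, 556, 543 and 788 CPM in FFPE against 991, 1023 and 1140 CPM in frozen. These long RNAs had a median length of 11320 nt, and their median stood 1.95 above that of tested genes of the same length. The group of the longest transcripts is wide, holding both Meg3 (14548 nt) and Kcnq1ot1 (93092 nt). Mirg lost its call in the model of all 6 groups. The end of Meg3 shares 98.8% of its 50-nt words with other transcripts, so its counts are uncertain.

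The list of microRNA precursors, chosen by symbol, had 14 tested members of 1089, 8 higher and 4 lower, with a median of 3.00 (0.81 above tested genes of the same length) that fell to 1.18 without the FFPE library of animal 06; 4 of the 14 are long host genes rather than hairpins. Counts on a hairpin gene in such libraries are longer RNA over that place, not the mature microRNA. Mir6385 stood at 7.96, 4.88, 6.12 and 6.21 CPM in FFPE and at 0.122, 0.180 and 0.136 CPM in frozen, and Mir703 rose by 9.54-fold, Mir7051 by 20.5-fold and the host genes Mir143hg and Mirlet7bhg by 15.2-fold and 7.63-fold. Mir6385 and Mir7051 share 100% and 54.2% of their 50-nt words with other transcripts, so their counts are uncertain. Both had too few frozen counts to be tested without the FFPE libraries, so the calls of this list come from a selected set too. Among replication-dependent histone genes, whose main transcripts end in a stem-loop instead of a tail, 8 of 68 were tested, 5 higher and 1 lower, with a median of 2.85 (0.86 above tested genes of the same length) that fell to 1.21 without that library. Hist1h2bc stood at 112, 121, 96.1 and 66.9 CPM in FFPE and at 20.7, 16.7 and 14.6 CPM in frozen. Hist1h4c, Hist1h4d and Hist4h4 had 59, 69 and 56 counts in FFPE and 1, 3 and 1 in frozen, ratios of 154 (95% counting interval 26.6 to 6190), 60.1 (19.7 to 298) and 146 (25.2 to 5880). With so few frozen counts they could be tested only through FFPE, so the filter on low counts largely set their direction. Hist1h1c, a linker histone, was the lower one, at 1.08 to 2.13 CPM in FFPE and 4.66 to 8.40 CPM in frozen.

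**Figure D1:**
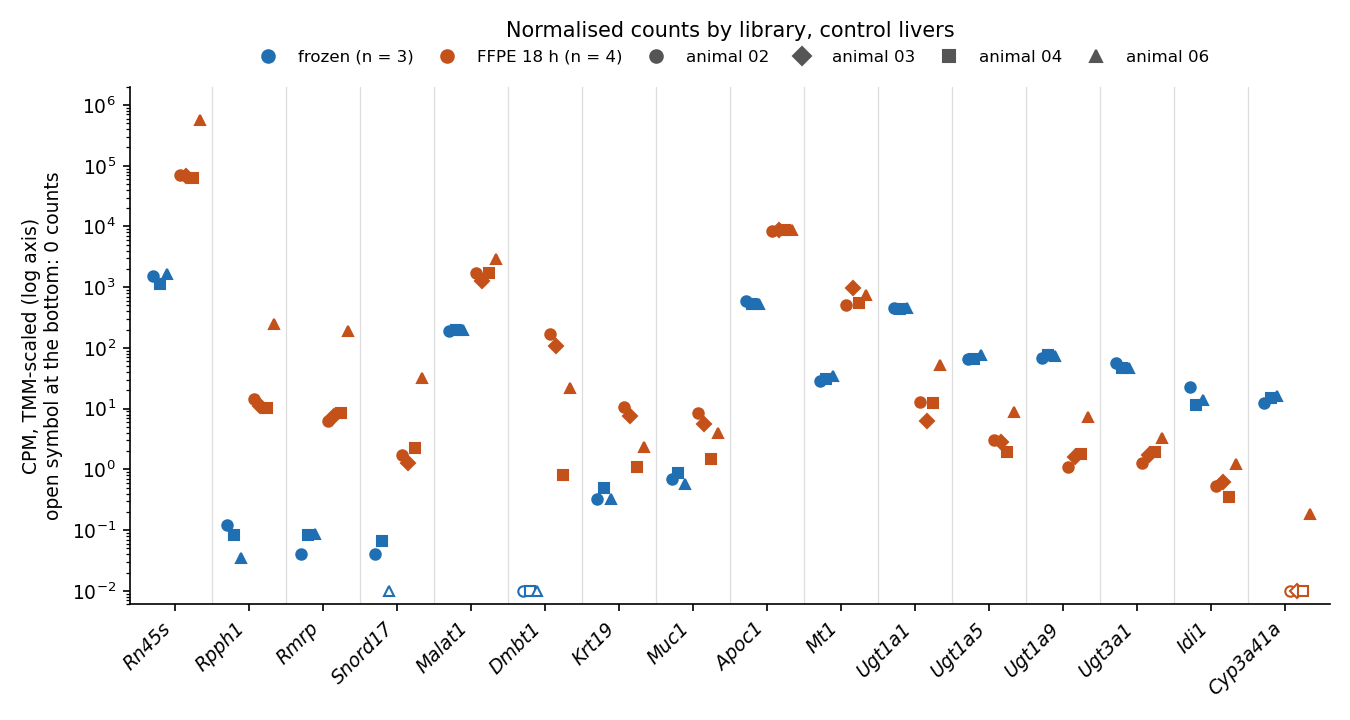
CPM by library on a log axis for 16 genes in control livers, blue for the 3 frozen and orange for the 4 FFPE 18 h libraries, the symbol giving the animal; open symbols at the bottom stand for 0 counts. FFPE values of Rn45s, Rpph1, Rmrp and Snord17 all lie above the frozen ones with animal 06 highest, and FFPE values of the Ugt1a genes all lie below.

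Among the 12 largest gains by the naming rule were also protein-coding genes and genes with no match in the annotation used. Ndufb4, a subunit of respiratory complex I, stood at 23.3, 20.3, 22.4 and 20.7 CPM in FFPE and at 0.386, 0.326 and 0.597 CPM in frozen, a gain of 49.2-fold. Chkb, a choline kinase, rose by 46.3-fold; 59.7% of its last 300 nt is also annotated to another transcript of its strand. Toporsos rose by 46.7-fold, but 69% of its last 300 nt overlaps Ndufb6 on the opposite strand, and in unstranded libraries reads of the pair cannot be told apart. Prkag2os1, an antisense gene, rose by 61.7-fold. Nrp and 9530091C08Rik, without a match, rose by 199-fold and 76.1-fold. In each of these genes all 4 FFPE values lay above all 3 frozen values, which the naming rule required.

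The gene with the widest gap, Dmbt1, a secreted scavenger-receptor protein of mucosal and ductal epithelium, had 2892, 2127, 14 and 234 counts in the FFPE libraries of animals 02, 03, 04 and 06 and 0 in each frozen library. Pooled over libraries, its level was at least 4580-fold higher in FFPE, with a floor of 3 counts over the frozen group. Its adjusted p was 0.00241, and with robust dispersions it missed the threshold. The FFPE libraries of animals 02 and 03 were far above that of animal 04, so the pooled bound does not hold for each liver. Krt19, the keratin of bile duct cells, followed the same animals, at 10.5, 7.44, 1.1 and 2.32 CPM in FFPE and 0.325, 0.490 and 0.324 CPM in frozen (14.0-fold, adjusted p = 0.00101). Muc1, a mucin of duct epithelium, stood at 8.48, 5.65, 1.5 and 3.99 CPM in FFPE and 0.690, 0.865 and 0.580 CPM in frozen. Of 8 tested cholangiocyte markers 5 passed, all higher (62.5%, beside 34.2% of all tested genes), with a median of 1.43. However, their summed level was 48.3 to 86.6 CPM in FFPE and 49.6 to 56.0 CPM in frozen. No marker of the list was at 0 in either group. The calls for Muc1, Tspan8 and Epcam were lost in the model of all 6 groups, that for Epcam also against a fold of 1.5 and without the frozen library of animal 02. Epcam stood at 1.21 CPM in the FFPE library of animal 06, within the frozen range of 0.893 to 1.25 CPM. The part of duct cells in the Dmbt1 gap was not tested. In furan livers Dmbt1 had 113, 58, 1205 and 447 counts in FFPE and 3, 32 and 2 in frozen.

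The largest losses included 3 genes of 1 locus, Ugt1a9, Ugt1a1 and Ugt1a5. The Ugt1a genes encode enzymes that attach glucuronic acid to bilirubin, steroids and drugs, and each joins a first exon of its own to the same last exons. Ugt1a1 stood at 13.1, 6.16, 12.2 and 51.6 CPM in FFPE and at 450, 437 and 461 CPM in frozen, a log2 fold change of -4.48 ± 0.59 (22.4-fold lower, adjusted p = 8.49e-05). Ugt1a9 was 27.4-fold and Ugt1a5 18.2-fold lower. Animal 06 had the highest FFPE value in all 3, and without it the log2 fold changes were -5.46, -5.64 and -4.78. Of the 7 tested Ugt1a genes 5 fell, Ugt1a2 rose and Ugt1a10 did not pass. Without the FFPE library of animal 06, 6 Ugt1a genes were tested, with 5 lower and 0 higher, so the call for Ugt1a2 depended on it. The median of the 7 stood 4.47 below that of tested genes of the same length. The group was added after its values were seen.

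The locus lies on chromosome 1 (GRCm38, plus strand), where Ugt1a9 runs from 88070800, Ugt1a5 from 88166012, Ugt1a2 from 88200601 and Ugt1a1 from 88211959, all to 88218997. The start of the coding sequence differs between members, while the last 740 nt or more are identical in all 8 annotated members. The last 300 nt of the transcripts of all tested members lie wholly over the other members. The first 48 nt of the coding sequence of 4 members are shown because these starts are what sets the members apart.
Ugt1a1: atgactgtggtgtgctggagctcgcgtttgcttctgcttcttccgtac
Ugt1a5: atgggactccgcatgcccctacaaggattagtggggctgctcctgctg
Ugt1a9: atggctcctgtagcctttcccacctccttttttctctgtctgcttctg
Ugt1a2: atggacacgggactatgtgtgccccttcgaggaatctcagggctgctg
Reads from the shared exons lie in several genes, so the counts of single Ugt1a genes depend on how such reads were assigned.

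Other large losses were of single genes. Ugt3a1, a glycosyltransferase with an end of its own, stood at 1.28, 1.75, 1.91 and 3.25 CPM in FFPE and at 57.0, 46.3 and 47.1 CPM in frozen (25.6-fold). Idi1, the isopentenyl isomerase of sterol synthesis, stood at 0.523, 0.616, 0.347 and 1.21 CPM in FFPE and at 22.5, 11.3 and 13.7 CPM in frozen (25.1-fold). Ccdc85c, Spata5l1 and Gm8909 were lower by 20.1-fold, 39.5-fold and 24.8-fold. All of these had FFPE values below every frozen value, which the rule for naming the largest changes required. Cyp3a41a, a cytochrome P450, had 2 counts in FFPE and 2467 in frozen, 472-fold lower with a 95% counting interval of 131 to 3900, and the pseudogene Gm1821 had 2 and 2233 counts, 428-fold lower (118 to 3530). The ends of Cyp3a41a, Gm1821 and Mup7 share 89.2% to 100% of their 50-nt words with other transcripts, so their counts are uncertain. Echdc1 was 35.0-fold lower, and the whole of its last 300 nt lies over Rnf146 on the opposite strand.

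Genes whose 3′ end lies wholly over a gene of the opposite strand had a lower median change than genes with a partial overlap or none. The 324 tested genes whose last 300 nt lie wholly over a gene of the opposite strand had a median log2 fold change of -0.47, with 161 lower (49.7%) and 77 higher. The 616 genes with an overlap over part of the end had a median of 0.09, with 202 lower (32.8%) and 229 higher, and the 11989 genes with an end of their own had one of 0.02. Dbp, a clock output gene whose whole end overlaps Sphk2, was in the first of these groups, at 40.7 to 62.4 CPM in FFPE and 75.9 to 120 CPM in frozen. These overlaps were examined after the named genes were seen.

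The broadest pattern ran with transcript length. The 12949 tested genes with a matched transcript were divided into 5 groups of equal size by length. In the shortest 20%, with a median length of 1213 nt, the median log2 fold change was 1.37, with 78.8% higher and 7.07% lower. It was 0.38, -0.06 and -0.42 in the next groups, at median lengths of 2099, 2992 and 4151 nt. In the longest 20%, with a median length of 6490 nt, it was -0.73, with 8.57% higher and 63.9% lower. The order held in each liver with both pieces: the medians of the shortest group were 1.34, 1.39 and 1.27 in animals 02, 04 and 06, and those of the longest were -0.77, -0.75 and -0.62. The Spearman correlation across genes between length and log2 fold change was -0.59; genes are not independent replicates, and no p is given.

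**Figure D2:**
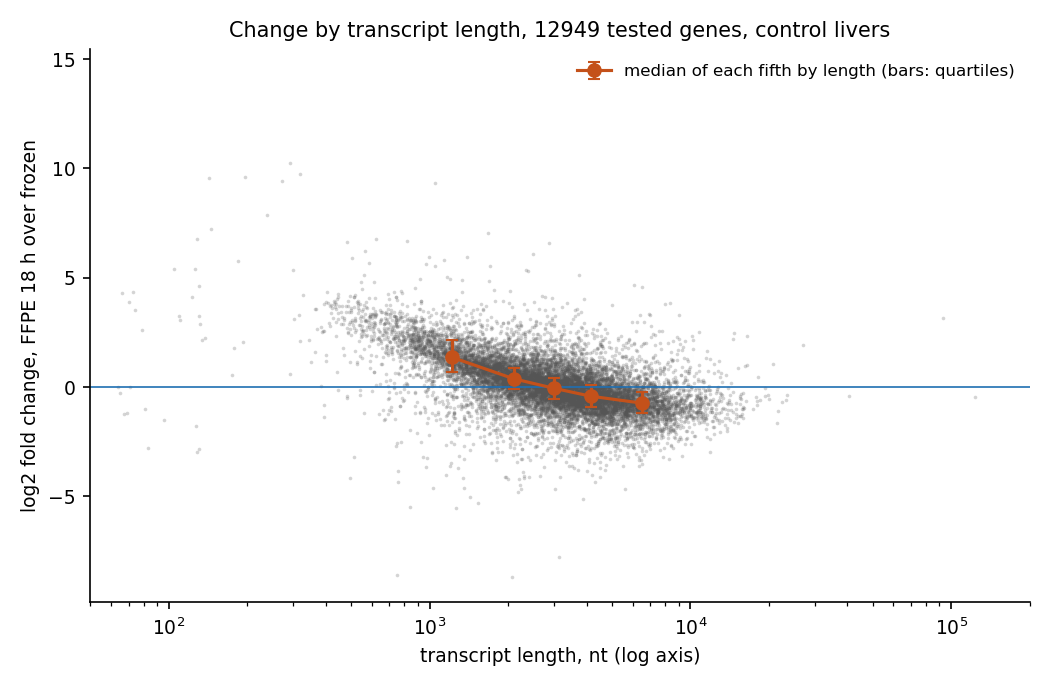
Log2 fold change of FFPE 18 h over frozen (vertical axis) against transcript length in nt (log axis) for 12949 tested genes, each a grey point, with the median and quartiles of 5 groups of equal size in orange. The medians fall from 1.37 in the shortest group to -0.73 in the longest.

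Leaving Rn45s out of the totals, genes of the shortest group took 34.1%, 34.1%, 33.8% and 32.6% of the counts in the FFPE libraries of animals 02, 03, 04 and 06, and 14.8%, 14.3% and 14.1% in the frozen ones of animals 02, 04 and 06. Genes of the longest group took 9.38%, 9.08%, 9.36% and 10.8% in FFPE and 17.5%, 18.2% and 18.1% in frozen. The groups of libraries did not overlap in either share. Coding length (Spearman -0.51), length of the 3′ untranslated region (-0.39) and number of exons (-0.37) ran the same way across genes. The GC content of the last 300 nt ran the other way (0.36). Within the shortest group, genes with the lowest end GC had a median of 0.70 and those with the highest 1.55, and within the longest group the medians were -1.11 and -0.51. Genes with the longest runs of A were not the higher ones: the group with the shortest longest run had a median of 0.65 and the group with the longest -0.30, but their median lengths were 1852 and 4477 nt.

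Among apolipoproteins, which the hepatocyte secretes, the shortest transcripts gained most. Apoc1, a lipoprotein component that restrains lipid uptake, stood at 8281, 8750, 8648 and 8716 CPM in FFPE and at 603, 539 and 526 CPM in frozen, a log2 fold change of 3.95 ± 0.10 (adjusted p = 6.72e-09). Apoc4, Apoc2 and Apoc3 rose by 11.5-fold, 11-fold and 10.3-fold and Apoa2, a component of high-density lipoprotein, by 8.01-fold. Apoa1, the main protein of high-density lipoprotein, rose by 2.23-fold and Apoe, a ligand of lipoprotein receptors, by 1.52-fold. Apoa5 had a log2 fold change of 0.19 ± 0.10 (adjusted p = 0.123). Apob, the scaffold of very-low-density lipoprotein and by far the longest at 13934 nt, fell from 8085, 7166 and 7213 CPM in frozen to 2575, 2565, 2416 and 3501 CPM in FFPE, 2.71-fold lower. Of 15 tested apolipoprotein genes 11 were higher and 1 lower, with a median of 1.16, which is -0.01 from that of tested genes of the same length. The group was drawn from the symbols after the values were seen, and it holds Apoo, a mitochondrial protein.

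The wider list of secreted hepatocyte proteins had 29 tested members, 16 higher (55.2%) and 6 lower (20.7%), beside 34.2% and 33.8% of all tested genes. Its median of 0.67 stood 0.23 below that of tested genes of the same length. The short transcripts of Rbp4, the retinol carrier, and Ttr, the thyroid hormone carrier, rose by 3.04-fold and 6.70-fold. C3, the central complement protein, stood at 5964, 6063, 6274 and 6245 CPM in FFPE and at 17331, 16188 and 15756 CPM in frozen, 2.68-fold lower. Alb, serum albumin, had a log2 fold change of -0.26 ± 0.09 (adjusted p = 0.0303). The log2 fold changes of this list of 29 ran from -1.44 to 3.95. Major urinary protein genes, a cluster of near-identical copies whose counts are uncertain, had 15 tested members, 10 higher and 2 lower. They ranged from -4.61 to 4.94, and their median of 1.72 stood 0.07 below that of tested genes of the same length.

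**Figure D3:**
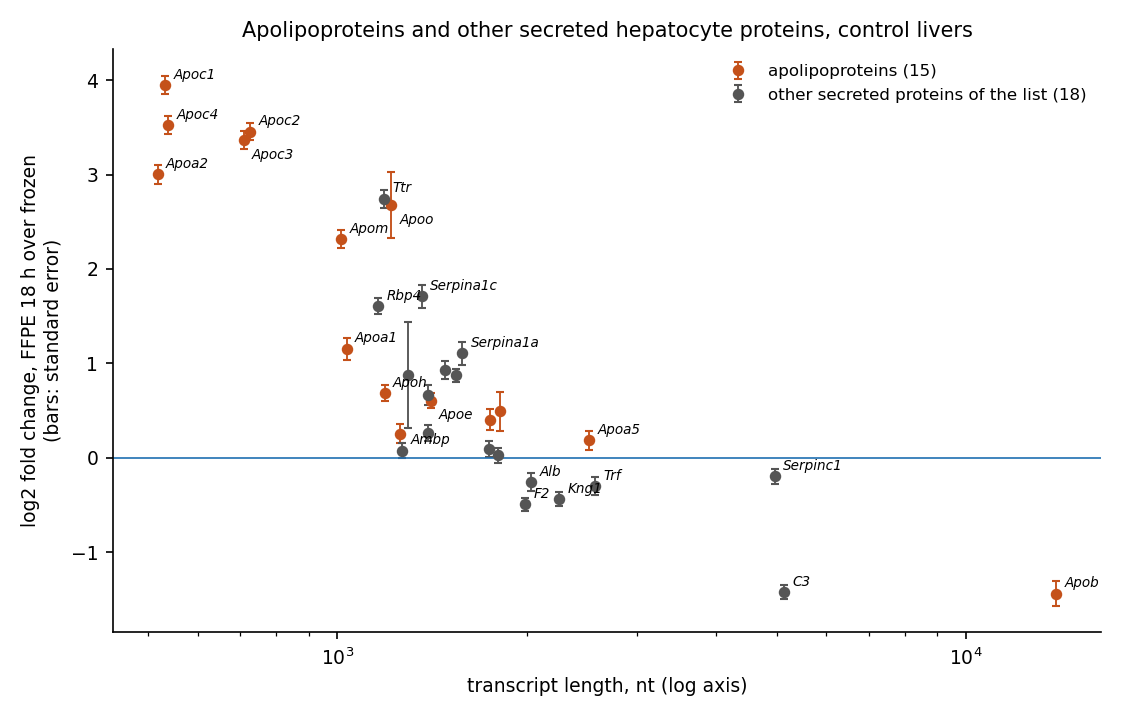
Log2 fold change of FFPE 18 h over frozen with its standard error (vertical axis) against transcript length in nt (log axis) for 15 apolipoprotein genes in orange and 18 other secreted hepatocyte proteins in grey. Apoc1, Apoc4 and Apoa2 lie at the short, higher end, and Apob and C3 at the long, lower end.

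The machinery of respiration and translation, made of many small proteins, was higher as well. Of 79 tested nuclear subunits of the respiratory chain 69 were higher and 4 lower, with a median of 2.19, which stood 0.51 above tested genes of the same length. Uqcr10, a subunit of complex III, stood at 253, 233, 253 and 238 CPM in FFPE and at 20, 18.9 and 18.2 CPM in frozen. Ndufa7, Ndufa2 and Ndufa11 of complex I and Cox8a of complex IV rose by 14.6-fold, 12.8-fold, 9.38-fold and 11-fold. The 4 lower members included larger subunits: Ndufs1, the biggest protein of complex I, was 1.66-fold lower, and Sdha, the flavoprotein of complex II, 1.47-fold lower. Mitochondrial ribosomal proteins had 76 tested members, 67 higher and 4 lower, with a median of 1.68. Mrpl52 stood at 103, 92.6, 95.6 and 98.2 CPM in FFPE and at 7.41, 7.34 and 6.70 CPM in frozen, and Mrps24, Mrps12, Mrpl14 and Mrpl57 rose by 7.51-fold to 9.28-fold.

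Cytosolic ribosomal proteins were less uniform: of 76 tested, 49 were higher and 17 lower, with a median of 1.45, which is 0.43 below tested genes of the same length. Rpl39 stood at 58.9, 48.9, 57.4 and 54.0 CPM in FFPE and at 2.03, 2.04 and 1.79 CPM in frozen, a gain of 28-fold. Rps26, Rps20 and Rpl14 rose by 13.4-fold, 10.2-fold and 9.70-fold. Rps25 stood at 1.1, 2.67, 2.31 and 2.04 CPM in FFPE and at 29, 27.9 and 23.1 CPM in frozen, 13.0-fold lower, and Rpl35 and Rpl19 were lower by 9.11-fold and 5.89-fold. Ribosomal protein genes have many processed pseudogenes, and reads that fit several places may be lost or moved. Of the 17 lower members 12 share at least 50% of the 50-nt words of their end with other transcripts, and of the 49 higher members 21 do, so single genes of this family are uncertain.

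Proteasome subunits rose less: of 39 tested, 31 were higher and 4 lower, with a median of 0.83, which is 0.27 below tested genes of the same length. Over all tested genes 34.2% were higher and 33.8% lower. Psmb2 and Psmb6 of the core rose by 3.99-fold and 4.25-fold, and the immunoproteasome subunits Psmb8, Psmb9 and Psmb10 by 3.70-fold, 4.57-fold and 4.17-fold. Of 49 spliceosome and SR protein genes 32 were higher (65.3%) and 10 lower (20.4%), with a median of 0.72, which is 0.17 above tested genes of the same length. Sf3b5, of the U2 particle, stood at 38.2, 37.3, 33.7 and 34.4 CPM in FFPE and at 5.36, 5.65 and 5.68 CPM in frozen, and the small Lsm3 and Snrpe rose by 10.2-fold and 8.47-fold. The Zfp genes, which encode DNA-binding zinc finger proteins, had 285 tested members, 67 higher (23.5%) and 85 lower (29.8%). Both shares lie below those of all tested genes. Their median of -0.13 stood 0.098 above that of tested genes of the same length. Zfp106 and Zfp146 were lower by 3.60-fold and 5.99-fold, and Zfp937, Zfp593 and Zfp524 were higher by 7.37-fold, 7.78-fold and 3.58-fold.

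**Figure D4:**
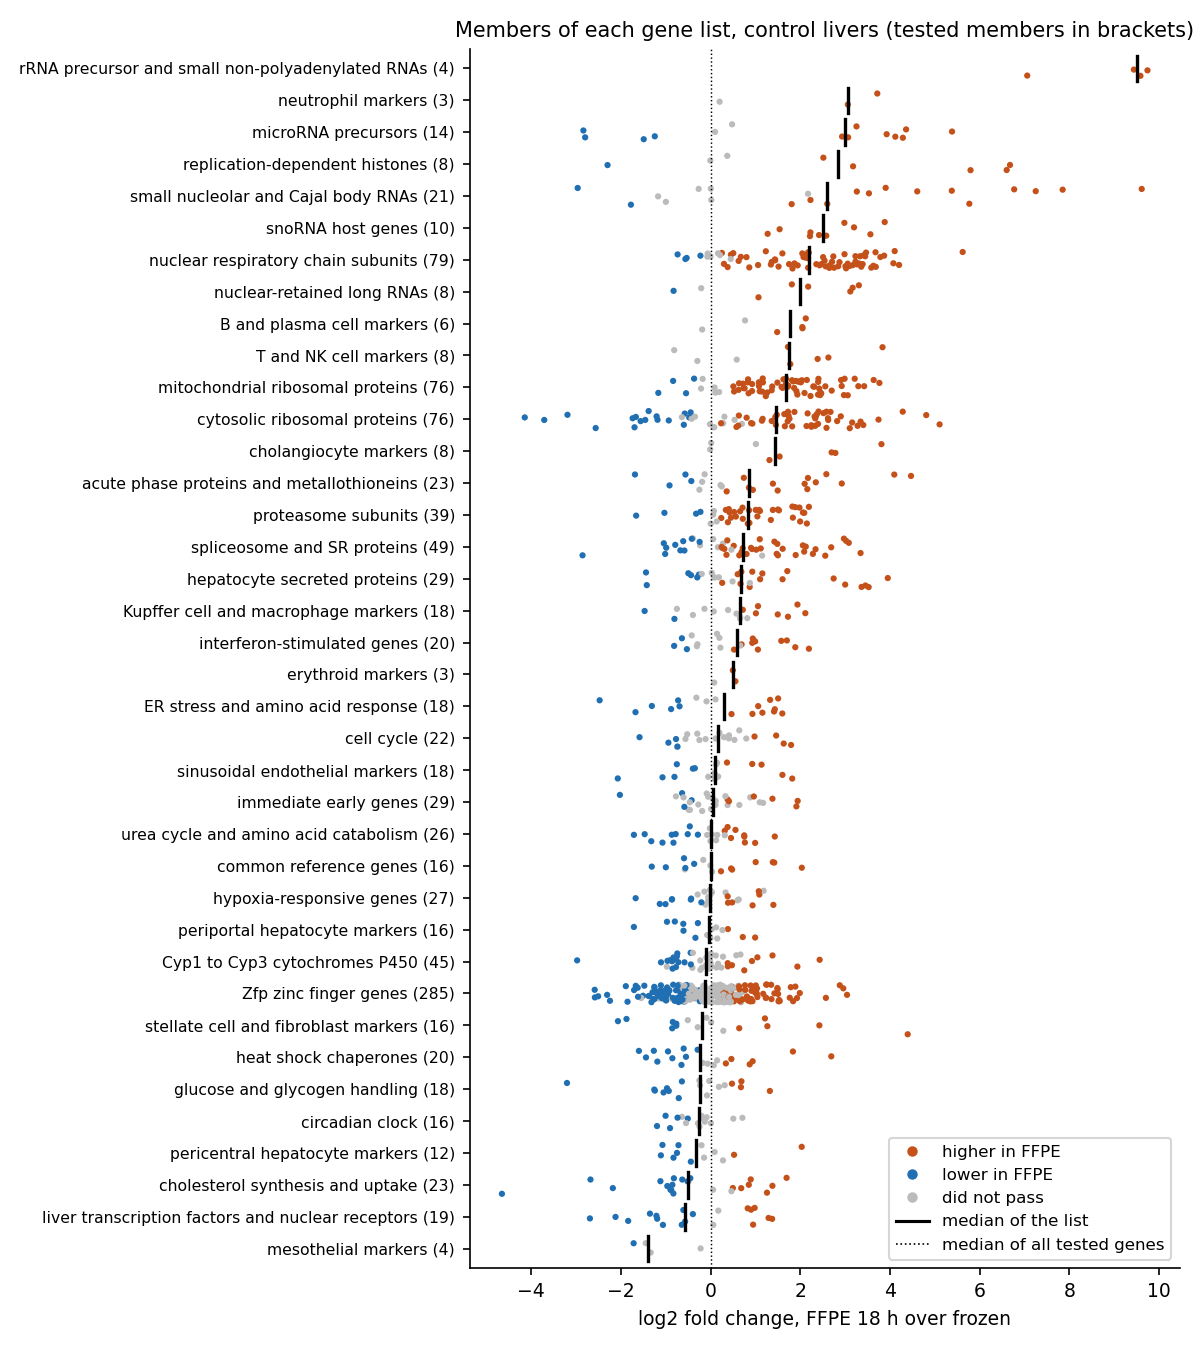
Log2 fold change of FFPE 18 h over frozen for the tested members of each gene list with at least 3 of them (points, orange higher, blue lower, grey not passing), with the list median as a bar and the median of all tested genes as a dotted line. The respiratory chain (median 2.19) and mitochondrial ribosomal proteins (1.68) lie mostly to the right, and liver transcription factors (-0.57) and cholesterol genes (-0.51) mostly to the left.

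Of 19 tested liver transcription factors and nuclear receptors 11 were lower and 6 higher, with a median of -0.57, which is 0.28 below tested genes of the same length. Nr5a2, which drives bile acid genes, stood at 15.3, 16.7, 14.7 and 21.4 CPM in FFPE and at 70.0, 71.6 and 78.5 CPM in frozen (4.34-fold lower). Ppara, the fatty acid receptor, and Foxa1, a pioneer factor, were lower by 2.31-fold and 2.08-fold. The bile acid receptor Nr1h4 and the oxysterol receptor Nr1h3 were higher by 1.87-fold and 1.78-fold. Cholesterol synthesis and uptake had 23 tested genes, 13 lower and 7 higher, with a median of -0.51, which is 0.22 below tested genes of the same length. Srebf2, the factor that turns on sterol synthesis, was 4.52-fold lower and Stard4, a sterol carrier, 6.39-fold lower, while the shorter Ebp and Pmvk, enzymes of the pathway, were higher by 3.24-fold and 2.60-fold. Of 16 tested clock genes 5 passed, all lower, which is 31.2% of the list beside 33.8% of all tested genes, and the list median of -0.26 stood 0.05 below that of genes of the same length. Among clock genes, Nr1d2, Hlf, Cry2, Cry1 and Dbp were lower by 2.00-fold, 1.66-fold, 1.42-fold, 2.29-fold and 1.87-fold.

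The metabolic enzymes of the hepatocyte moved in both directions, as did all tested genes (34.2% higher and 33.8% lower). Of 26 urea cycle and amino acid genes 9 were higher (34.6%) and 10 lower (38.5%), near those shares, with a median of 0.02. Cps1, the first enzyme of the urea cycle, stood at 1659, 1742, 1806 and 2621 CPM in FFPE and at 5662, 5865 and 7648 CPM in frozen (3.27-fold lower), and Tdo2, which breaks down tryptophan, was 2.76-fold lower. Gnmt, which uses up methyl groups, was 2.70-fold higher. Of 18 glucose and glycogen genes 8 were lower and 4 higher: Slc2a2, the glucose transporter, Pck1, of gluconeogenesis, and Pygl, of glycogen breakdown, were lower by 2.36-fold, 1.96-fold and 1.63-fold, and Khk, which phosphorylates fructose, was 2.50-fold higher. The Cyp1 to Cyp3 cytochromes P450, which oxidise drugs and steroids, had 45 tested members, 15 lower and 9 higher, with a median of -0.09. Cyp3a11 and Cyp2c37 were lower by 1.81-fold and 1.68-fold, and Cyp2d10 was 1.68-fold higher. Pericentral markers had 6 of 12 lower and 2 higher (median -0.32), and periportal markers 7 of 16 lower and 3 higher (median -0.04). Lect2 was the pericentral marker with the smallest p, 4.09-fold higher, while Oat and Cyp2e1 were lower by 2.10-fold and 1.36-fold. Both zones' markers were detected in every group, none being at 0.

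Stress and acute phase genes did not move as one, beside 34.2% higher and 33.8% lower over all tested genes. Metallothioneins, which bind zinc and copper, stood out: Mt1 was at 501, 980, 550 and 747 CPM in FFPE and at 28.7, 30.9 and 34.6 CPM in frozen (22.1-fold), and Mt2 rose by 17.1-fold. Both transcripts are short, at 549 and 511 nt. Of 23 tested acute phase and metallothionein genes 14 were higher and 4 lower, with a median of 0.86, which is 0.21 below tested genes of the same length. Hamp, the iron hormone hepcidin, stood at 1458, 1695, 1768 and 2604 CPM in FFPE and at 203, 203 and 336 CPM in frozen, and Saa1, serum amyloid A, rose by 5.09-fold. Steap4, a metal reductase, was 3.21-fold lower. Heat shock chaperones had 20 tested members, 10 lower and 6 higher (median -0.23): Hspa8, Hspd1 and Hsp90ab1 were lower by 2.71-fold, 2.40-fold and 1.93-fold, and Hspe1 was 1.92-fold higher.

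Genes of early stress responses gave mixed counts, beside 34.2% higher and 33.8% lower over all tested genes. Of 29 tested immediate early genes, which respond within minutes to handling and injury, 6 were higher and 4 lower, and 19 did not pass, with a median of 0.06. Klf2 and Ier2 were higher by 3.77-fold and 1.95-fold, and Klf4 was 4.06-fold lower at under 2 CPM. Fos had a log2 fold change of 0.88 ± 0.47 (adjusted p = 0.12) and Jun one of -0.49 ± 0.20 (adjusted p = 0.0521). Of 27 hypoxia-responsive genes 7 were higher and 8 lower (median -0.01), with Aldoa 2.13-fold higher and Ero1l and Bhlhe40 lower by 3.18-fold and 2.19-fold. Among 18 genes of endoplasmic reticulum stress and the amino acid response 9 were higher and 6 lower (median 0.29), Atf4 being 3.03-fold higher and Sesn2 and Dnajb9 lower by 5.54-fold and 3.19-fold. Of 20 interferon-stimulated genes 10 were higher and 3 lower (median 0.59), with Ifit1 and Isg15 higher by 3.25-fold and 2.98-fold. Cell cycle genes had 22 tested members, 4 higher and 4 lower (median 0.16), with Tk1 2.76-fold higher and Pcna 2.99-fold lower. The calls for Klf4, Isg15 and Pcna were lost in the model of all 6 groups.

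Of 16 tested genes often used to normalise expression 7 were higher, 5 lower and 4 did not pass, shares near those of all tested genes (34.2% higher and 33.8% lower). Actb, cytoplasmic actin, stood at 589, 546, 599 and 618 CPM in FFPE and at 313, 335 and 231 CPM in frozen (2.01-fold higher), and B2m and Ywhaz were higher by 2.62-fold and 2.68-fold. Eef1a1, Polr2a and Sdha were lower by 1.99-fold, 1.51-fold and 1.47-fold. Pgk1, Hprt and Rplp0 were higher by 1.4-fold, 1.37-fold and 1.18-fold and Tfrc was 1.29-fold lower; with total-count scaling Pgk1, Hprt and Rplp0 missed the threshold, and Rplp0 turned to -0.04. In the model of all 6 groups Pgk1, Rplp0 and Tfrc lost their calls. Tfrc also lost its call with upper-quartile scaling, with a minimum mean of 5 CPM, and without the FFPE library of animal 02 or 03 or the frozen library of animal 02 or 06. Without the FFPE library of animal 02 or 03 or the frozen library of animal 04 or 06, Hprt and Rplp0 missed the threshold, and Rplp0 did so without the FFPE library of animal 04 too. Among those that did not pass were Gusb (log2 fold change 0.03 ± 0.09), Tbp (0.00 ± 0.19) and Ppia (-0.57 ± 0.54). Gusb stood at 28.4, 32.5, 29.2 and 27.8 CPM in FFPE and at 28.3, 28.9 and 29.3 CPM in frozen. Gapdh was 2.48-fold lower at 0.465 to 3.21 CPM in all libraries, and the end of Gapdh shares 82.9% of its 50-nt words with other transcripts, as does 78.1% of that of Ppia, so these counts are uncertain as levels of the genes; the call for Gapdh was lost in the model of all 6 groups and without the frozen library of animal 06.

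Markers of the other liver cells also split by gene, as did all tested genes (34.2% higher and 33.8% lower). The shares were near these for sinusoidal endothelial markers (27.8% and 33.3%) and for stellate cell and fibroblast markers (31.25% and 37.5%). Of 18 sinusoidal endothelial markers 5 were higher and 6 lower (median 0.09): the short Egfl7 and Clec4g rose by 3.53-fold and 3.04-fold, while Kdr, the receptor of vascular endothelial growth factor, fell from 63.8, 67.5 and 66.2 CPM in frozen to 14.2, 13.5, 11.3 and 24.7 CPM in FFPE. Of 18 Kupffer cell and macrophage markers 7 were higher and 2 lower (median 0.66), with C1qa, C1qb and C1qc, the chains of complement C1q, higher by 3.31-fold, 4.33-fold and 3.83-fold. Of 16 stellate cell and fibroblast markers 5 were higher and 6 lower (median -0.19). Acta2, smooth muscle actin, stood at 29.1, 17.8, 17.7 and 9.55 CPM in FFPE and at 1.1, 0.490 and 1.09 CPM in frozen (21.0-fold higher), and Tagln, another contractile protein, was 5.38-fold higher, while Rgs5 and Dcn, of pericytes and fibroblasts, were lower by 4.18-fold and 1.70-fold. Summed over the list, these stellate and fibroblast markers gave 480.6 to 547.3 CPM in FFPE and 580.3 to 593.4 CPM in frozen.

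Markers of cells that are scarce in liver were low in every library, and many were too low to test. Over all tested genes 34.2% were higher and 33.8% lower. Medians stood 0.37 (T and NK), 0.76 (B and plasma), 0.68 (neutrophil), 1.00 (muscle) and 0.16 (erythroid) above tested genes of the same length. Those of adipocyte and mesothelial markers stood 0.20 and 1.13 below. Some members could pass the filter on low counts only through their higher group. Of 8 tested T and NK cell markers 5 passed, all higher, with summed levels of 11.3 to 19.5 CPM in FFPE and 4.52 to 8.94 CPM in frozen, and Ccl5, a chemokine, rose by 14.3-fold. B and plasma cell markers had 4 of 6 higher (9.24 to 12.3 against 3.58 to 6.20 CPM), neutrophil markers 2 of 3 (2.41 to 6.12 against 1.71 to 3.09 CPM) and skeletal muscle markers 2 of 2 (4.74 to 7.73 against 0.893 to 1.25 CPM), with S100a8 higher by 13.1-fold and Mylpf by 11-fold. Adipocyte markers had 1 of 2 higher, Fabp4 by 4.53-fold, and their summed level was 13.2 to 17.6 against 4.5 to 4.71 CPM. Erythroid markers had 2 of 3 higher, Alas2 by 1.47-fold and Car1 by 1.41-fold, and neither call was kept with total-count scaling. Mesothelial markers had 1 of 4 lower, Gpm6a, and none of 13 pancreatic acinar markers had enough counts to be tested. At these levels several calls were lost in the model of all 6 groups, among them Cd3e, Cd79b, Nkg7, S100a9, Mylpf, Tnnt1, Alas2, Car1 and Gpm6a.

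Differences between livers carried over from the frozen to the FFPE piece. After the group means were removed, the log2 levels of 9317 genes correlated between pieces of the same liver with r of 0.518, 0.507 and 0.517 for animals 02, 04 and 06, and between pieces of different livers with r of -0.398 to 0.190. Removing the group means makes the frozen deviations of each gene cancel out. A positive r within livers thus lowers the r between livers, so part of that gap is built in. Per1, a clock gene, is an example picked for its pattern: it stood at 21.8, 35.0 and 83.6 CPM in the frozen pieces of animals 02, 04 and 06 and at 19.3, 34.4 and 78.8 CPM in their FFPE pieces. C1qa was highest in animal 04 in both, at 30.1 CPM against 12.7 to 16.2 in frozen and at 94.1 CPM against 51.0 to 57.7 in FFPE. Mup7 fell in the order 02, 04, 06 in both, at 35.0, 11.1 and 3.46 CPM in frozen and 1.57, 0.289 and 0.185 CPM in FFPE, on a scale 24.4-fold lower. The FFPE piece of animal 03 has no frozen partner here.

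The same comparison in furan livers, which shares no library with this one, gave much the same values gene by gene. There 9785 of 13411 tested genes passed (73%), 4930 higher (36.8%) and 4855 lower (36.2%). Across the 12922 genes tested in both, the log2 fold changes correlated with a Pearson r of 0.967 and a Spearman rho of 0.969, as a description across genes. Of the calls, 8274 were shared in the same direction, which is 94% of those in control and 86.8% of those in furan livers among these genes. All 24 genes named for the largest changes passed in furan livers in the same direction. The difference of the effect between control and furan livers was tested for 13739 genes in 1 model of the 4 groups, and 0 passed by edgeR (0%), with 455 at an unadjusted p under 0.05. DESeq2 called 1, Smcr8, and edgeR with the animal as a block 2, Dmbt1 and Ppp1r10. For Dmbt1 the furan log2 fold change was 6.47, and its frozen furan libraries were not at 0.

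**Figure D5:**
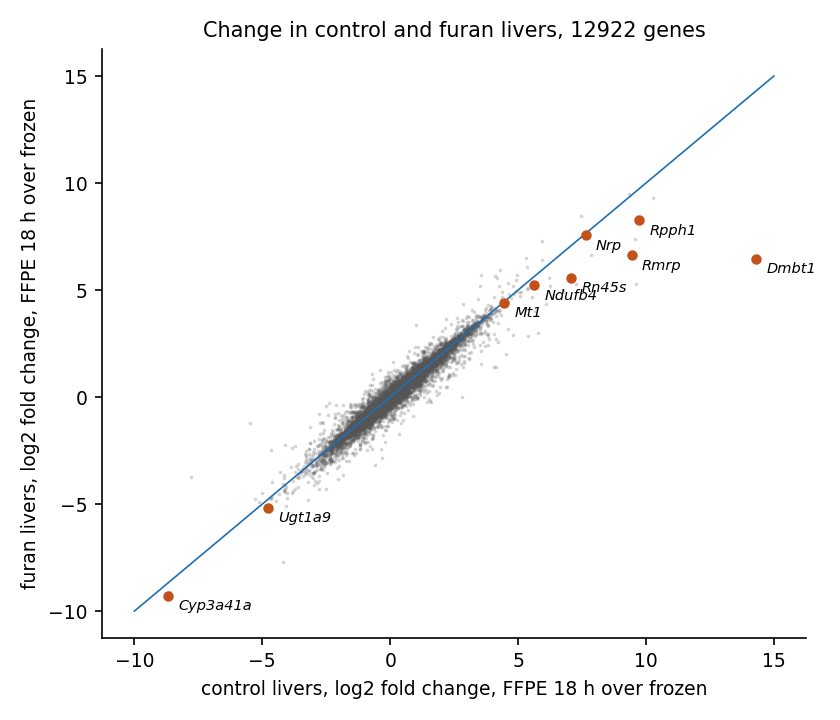
Log2 fold change of FFPE 18 h over frozen in furan livers (vertical axis) against that in control livers (horizontal axis) for 12922 genes, each a grey point, with the line of equal change in blue and 9 genes named in orange. Most points lie along the line (r = 0.967), and Dmbt1, Rn45s, Rpph1 and Rmrp lie below it; the control value of Dmbt1, with 0 frozen counts, depends on the prior count of the fit.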

How the data were processed

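Counts per gene in the deposited table are unnormalized read counts; per the submitters' processing notes, reads were handled with CASAVA 1.8.2, STAR 2.3.0 and featureCounts 1.4.4 on mm9. Of the table's columns 2 match no label and were not used; frozen animals 03 and 42 were not analysed here. Counts were tested with edgeR 4.0.16 (R 4.3.3) in the libraries of each comparison: filterByExpr, TMM scaling, quasi-likelihood F test, Benjamini-Hochberg adjustment, threshold 0.05. The standard error is the log2 fold change divided by the root of F. DESeq2 1.42.0, other scalings, filters, dispersions and thinning were alternatives. The fit was tested on simulated data for 12909 genes of the control comparison. In these, 67 genes were changed 1.5-fold, 67 were changed 2-fold and 66 were changed 4-fold. The fit recovered 35.8%, 65.7% and 95.5% of them, and 6.43% of its calls were false. In the data a far larger share of tested genes passed (68%), so these rates may not hold there. Replicates are separate livers.

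Pieces of 1 liver share an animal number in the labels, and their deviations from the group means correlated with r of 0.507 to 0.518. No libraries agreed within sampling noise. Lengths, ends and sequences come from 1 transcript per gene of GENCODE M21 (GRCm38), matched by symbol for 23637 of 24015 genes. Coding transcripts came first, then those with a RefSeq match, then those of the basic set, then the longest. Which transcript the liver expresses was not examined, so some lengths and ends may be those of another form. Rps20, for example, was given 3706 nt, of which 3167 nt are 3′ untranslated region. Genes of the same length are those in the same of 20 groups of equal size by length, and the shortest group joins small RNAs with longer messenger RNAs. No coordinates of mm9 were used. Named were the 12 largest changes each way among passing genes whose ranges did not overlap and whose higher mean was 5 CPM or more, up to 5 members per list with the smallest p, all reference genes and all tested small RNAs without a tail. Genes named besides (such as Xist, Apob, C3, Rps25, Fos and Per1) were chosen after their values were seen, as were 4 groups (apolipoproteins, Ugt1a genes, major urinary proteins, C1q chains) and the features of transcript ends. Members and lists were chosen with earlier results of these data known. Some items are not reported here. Counting intervals (95%, exact) and the floor of 3 counts cover counting error only.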

Additional observations from a re-analysis of the deposited data

Results flagged for a closer look

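Values of single libraries were screened in the control FFPE group for the 215 named genes and for the shares of RNA classes. A library was singled out when its gap to the nearest of the other 3 divided by the range of the group exceeded Dixon's 95% critical value. Chance alone singles out about 5% of groups, and here 13.5% of the named genes were. In 24 of the 32 cases the library was that of animal 06, in 4 that of animal 03, in 4 that of animal 04 and in 0 that of animal 02.

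Animal 06 was the high library for RNAs without a tail, at 245.1 CPM for Rpph1, 27.82 for Vaultrc5, 189.2 for Rmrp, 32.46 for Snord17, 2.968 for Snora78 and 563100 for Rn45s (37.3% of all counts). Small nucleolar and Cajal body RNAs took 0.01814% of its counts without Rn45s. Animal 06 was also highest for genes that were lower in FFPE, at 7.419 CPM for Ugt1a9, 51.56 for Ugt1a1, 8.718 for Ugt1a5, 0.1855 for Cyp3a41a, 2621 for Cps1, 34.22 for Stard4, 53.05 for Polr2a and 183.2 for Slc1a2, so that these values lie nearest to the frozen ones. The Ugt1a genes took 0.00877% of its counts without Rn45s. It was highest for Rpl14 (114.1 CPM) and Aldoa (123.9 CPM) and lowest for Snhg8 (32.46 CPM), Psmb6 (131.8 CPM), Ywhaz (79.02 CPM), Colec11 (39.69 CPM) and S100a9 (0 CPM).

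Animal 03 was the high library for Mt2, a metallothionein, at 445.3 CPM, and the low one for Snhg3 (10.42 CPM), Ier3 (3.081 CPM) and Hspa8 (50.88 CPM). Animal 04 was the high library for the macrophage genes C1qa (94.06 CPM) and Cd68 (22.19 CPM) and for the mesothelial genes Gpm6a (0.8089 CPM) and Msln (1.387 CPM).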

How the results depend on the processing

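The count of passing genes in control livers moved from 8867 to 5769 in 1 model of all 6 groups and to 5484 when tested against a fold of 1.5; in furan livers it moved from 9785 to 5837 and 6122. The model of all 6 groups also holds the FFPE libraries fixed for 3 weeks, and the cause was not tested. Leaving out each library in turn gave 8111 to 9299 genes in control and 9053 to 9768 in furan livers, and 0 to 0 for the difference between them. That difference gave 1 gene with DESeq2 and 2 with the animal as a replicate block. With the block, livers with both pieces gave 9460 genes in control and 10322 in furan livers, and of the named genes 1 lost its call. Of 204 named genes that passed, 156 kept direction and call in all of the 19 alternatives that tested them, and 48 lost the call in at least 1: 31 in the model of all 6 groups, 24 against a fold of 1.5 (among them Hlf, Cry2, Cyp2e1, Polr2a and Sdha) and 10 with total-count scaling. Rplp0 turned from 0.23 to -0.042 with total-count scaling, in which the median of all genes is -0.27. FFPE libraries hold 16277165 to 19315103 counts, so genes with a few counts are the least certain; thinning all libraries to 1 depth left 8566 passing genes.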

Other observations

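Some liver genes with a large difference between mice kept it in both preparations. Sqle and Cyp51, enzymes of cholesterol synthesis, were highest in animal 02 in frozen tissue: Sqle stood at 113 CPM there against 59.0 and 71.8 CPM in animals 04 and 06, and Cyp51 at 235 CPM against 130 and 145 CPM. In FFPE tissue Sqle stood at 50, 31.3 and 45.6 CPM and Cyp51 at 147, 91.2 and 98.7 CPM in animals 02, 04 and 06, with animal 04 lowest in both preparations. Mup10, a major urinary protein, stood at 1020, 725 and 496 CPM in frozen and at 149, 138 and 67.3 CPM in FFPE in the same order of animals. These genes were picked for the pattern after their values were seen, and no test was made.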
